A study of Mus musculus with 6 samples.

Results

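The genes described here encode the contractile filaments of the adult heart muscle cell, namely the cardiac troponins, tropomyosin, cardiac myosin-binding protein C, titin with its cap, and the ventricular myosin light chains. The 10 genes are Tnnt2, Tnni3, Tnni1, Tnnc1, Tpm1, Mybpc3, Ttn, Myl2, Myl3 and Tcap, given by symbol. On the arrays, 9 of the 10 had at least 1 probe, with 23 probes in all, and 8 of the 10 had a probe above background and were among the 11285 genes tested. Tnnt2 is not analysed here. Where a gene had several probes, the one with the highest mean signal stands for it and the others are given beside it.

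Expression was measured in total RNA of adult mouse hearts with or without Kdm4a (also called Jmjd2a), a histone demethylase that acts on lysines of histone H3, on 6 single-colour Illumina bead arrays. A general knockout heart (1 array) was set against the wild type named as its control (1 array), with no sex stated. Heart-specific knockouts (1 female and 1 male heart) were set against a female and a male wild type named as their controls. The arrays therefore form 3 pairs, called general, female and male below. The labels used here give no strain, no driver of the heart-specific deletion and no age beyond adult, and do not say whether a sample was 1 animal or a pool, so the spread between pairs may be partly technical. Values are the authors' normalized intensities on a linear scale, and every difference is log2 knockout minus wild type.

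The sarcomere shortens when the heads of myosin in the thick filament pull on actin in the thin filament. Calcium binding to troponin C moves troponin I, troponin T and tropomyosin on the thin filament and so opens the sites for myosin, while the light chains and myosin-binding protein C tune the myosin heads. Titin spans from the Z-disc to the M-band as a spring, and its end in the Z-disc is capped by telethonin. Around birth the rodent heart exchanges the slow skeletal troponin I for the cardiac form, and the atrial light chains are set apart from the ventricular ones, which makes these genes a common readout of an adult ventricular state.

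Each array had 18307 to 19658 of 45281 probes above a background level of 121 to 124, defined as the 95th percentile of odorant, vomeronasal and trace amine receptor probes. All 12 markers fixed for heart muscle cells were above background, and their summed signal was 231414 to 240248 in knockout and 208650 to 264072 in wild-type hearts. The brightest Kdm4a probe read 102, 107 and 114 in the general, female and male knockouts, against 115, 119 and 123 in their wild types. It was above background on 1 array, so the deletion could not be checked from it. The value at each of the 10 highest ranks was the same on all 6 arrays (50962 for rank 1, 44903 for rank 10), so the signal of the brightest probes follows their rank on the array. This concerns Tnnc1, Myl2 and Myl3, which read above 30000 on every array, where only 64 probes lie.

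No change of these genes shared by the 3 pairs was detected. Across the 3 pairs none of the 8 tested members passed limma's test, which called 0 of 11285 genes (0%) at an adjusted p of 0.05. In this test 303 genes had an unadjusted p under 0.05, fewer than the 564 expected by chance. No member was higher in all 3 pairs (11.3% of all genes were) and none was lower in all 3 (10.5% were). For no member did the 3 knockout arrays lie apart from the 3 wild-type arrays, which happened for 6.19% of genes. The median over the 8 members was -0.005, beside 0.004 over all genes. Their mean differences ranged from -0.09 for Ttn to 0.07 for Tcap, and the 95% intervals of the fit reached 0.24 to 0.58 to either side on the log2 scale, so a common change within these intervals cannot be told from none with 3 pairs.

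**Figure D1:**
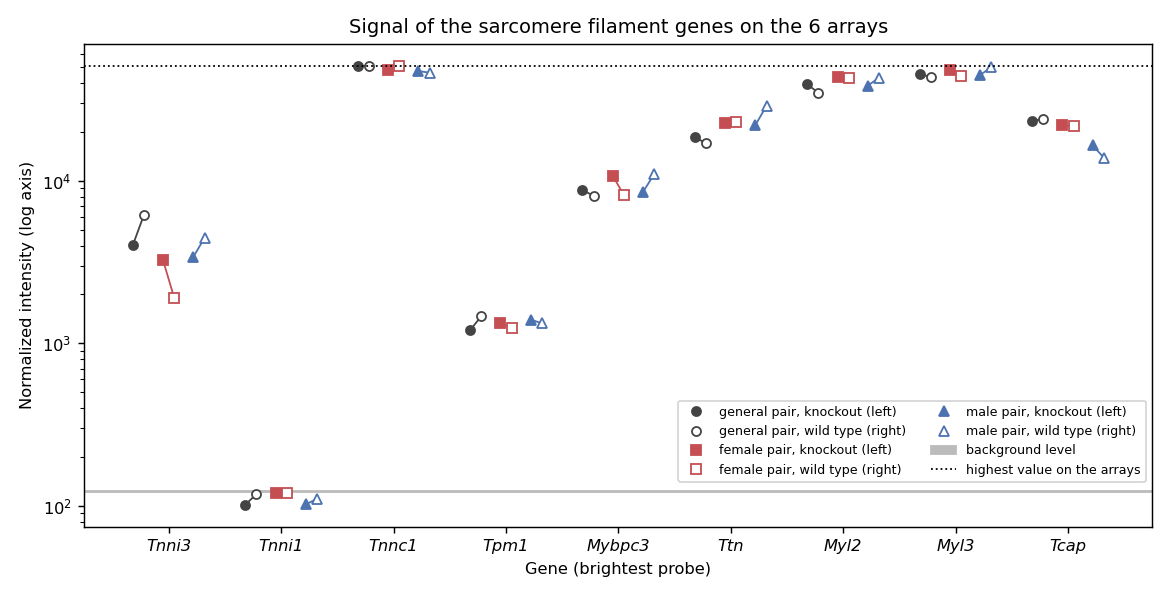
Normalized intensity (log axis) of the brightest probe of 9 genes on the 6 arrays, with filled symbols for knockout and open symbols for wild-type hearts of the general, female and male pairs. Tnni1 lies at the background level (grey), Tnnc1, Myl2 and Myl3 lie near the highest value on the arrays (dotted line), and Tnni3 spreads from 1893 to 6195.

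Tnni3, cardiac troponin I, which holds the thin filament shut in the absence of calcium, varied most of all members. Its intensity was 4016 in the general, 3237 in the female and 3415 in the male knockout heart, against 6195, 1893 and 4473 in the matching wild types. The 3 knockout hearts lay close together, inside the range of the wild types, of which the general one was the highest and the female one the lowest of all 6 arrays. The differences were -0.63, 0.77 and -0.39 in the general, female and male pairs. Only 0.443% of all genes differed more than Tnni3 in the female pair, 2.53% in the general pair and 13.4% in the male pair. Since the pairs moved in opposite directions, the mean was -0.08 ± 0.75 (SD, n = 3 pairs; limma adjusted p = 0.9998), with a 95% interval from -0.66 to 0.499. It was the only member with a difference of at least 0.5 in either direction in the general pair, as 4.84% of genes had, and in the female pair, as 1.88% had. In the male pair 0 of 8 members reached 0.5, beside 7.2% of genes.

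Tnni1, the slow skeletal troponin I of the fetal heart, was not measurable. Its single probe read 102, 120 and 102 in the general, female and male knockouts and 118, 120 and 111 in their wild types, below background on all 6 arrays. No heart therefore gave a signal of the fetal isoform above background, and no difference is given.

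Tnnc1, the calcium-binding troponin C of heart and slow muscle, was the brightest probe of the array on 3 of 6 arrays. It read 50962, 47912 and 47404 in the general, female and male knockout hearts, against 50962, 50962 and 46332 in the wild types. Both general arrays and the female wild type thus stood at the top of the scale, and the differences were 0, -0.089 and 0.033. The mean of -0.019 ± 0.063 (SD, n = 3 pairs; limma adjusted p = 0.9998) is that of a probe whose rank ran from 1 to 7.

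Tnnc1 and Myl3 had the narrowest spread over the arrays of all members, and the 250 bases before their RefSeq gene starts are shown for that reason. Both windows lie wholly outside the annotated gene. The capitals mark the MCAT motif, spelled CATTCC, on either strand and the CArG box, known binding motifs of TEAD factors and of serum response factor. The sequences are RefSeq's, read on the gene's strand in GRCm38.p6, at chr9:110763428-110763677 (plus) for Myl3 and chr14:31208062-31208311 (plus) for Tnnc1.
Myl3: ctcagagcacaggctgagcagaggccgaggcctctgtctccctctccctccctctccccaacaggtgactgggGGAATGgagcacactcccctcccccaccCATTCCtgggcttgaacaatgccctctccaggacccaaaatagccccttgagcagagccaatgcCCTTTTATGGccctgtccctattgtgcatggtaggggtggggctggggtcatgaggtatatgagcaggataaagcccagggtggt
Tnnc1: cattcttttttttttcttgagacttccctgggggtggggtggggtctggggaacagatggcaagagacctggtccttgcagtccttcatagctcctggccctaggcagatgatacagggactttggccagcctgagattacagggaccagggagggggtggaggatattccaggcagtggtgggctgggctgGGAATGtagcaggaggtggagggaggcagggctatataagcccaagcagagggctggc
Myl3 held 2 MCAT matches, which begin at -177 and -149 from the start, and 1 CArG match at -85. Tnnc1 held 1 MCAT match at -58. The search covered both strands and also took in the GATA motif, spelled AGATAA, the TATA box, spelled TATAAA, and the MEF2 motif. Of all 32851 windows of this length, 12.64% held the MCAT motif, 1.47% the CArG box, 9.99% the GATA motif, 12.37% the TATA box and 2.92% the MEF2 motif. RefSeq's table holds 12 windows of 9 members. Of these, 9 reach into the annotated gene, that of Tnni3 with 190 of its 250 bases, so it is not shown. Among the 12 windows 4 held the MCAT motif, 1 the CArG box, 2 the GATA motif, 1 the TATA box and 2 the MEF2 motif. A match only says that these letters are present, and no binding was measured here.

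Tpm1, the tropomyosin that lies along actin, had 3 probes, 2 of them above background. The brightest read 1202, 1330 and 1402 in the general, female and male knockouts, against 1469, 1248 and 1328 in the wild types. The general knockout was the lowest and the general wild type the highest of the 6 arrays, and the other 4 lay between them. The differences were -0.29, 0.093 and 0.079 in the general, female and male pairs. The dimmer probe gave -0.099, -0.12 and 0.37, so the probes had opposite signs in the female pair. The mean of the brightest was -0.039 ± 0.22 (SD, n = 3 pairs; limma adjusted p = 0.9998).

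Mybpc3, cardiac myosin-binding protein C, a brake on the myosin heads, read 8779, 10756 and 8560 in the general, female and male knockouts and 8097, 8170 and 11018 in the wild types. The groups overlapped fully, with the male wild type highest and the general wild type lowest. It differed by 0.12, 0.397 and -0.36, with a mean of 0.05 ± 0.38 (SD, n = 3 pairs; limma adjusted p = 0.9998). In the female pair 4.69% of genes differed more and in the male pair 15.5%. Mybpc3 shared its signs with Tnni3 in the female and male pairs but not in the general one.

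The ventricular light chains were among the brightest signals on the arrays. Myl2, the regulatory light chain whose phosphorylation primes the ventricular myosin head, read 39341, 43509 and 38572 in the general, female and male knockouts and 34808, 43137 and 43137 in the wild types. It differed by 0.18, 0.012 and -0.16, and the general wild type stood lowest. Myl3, the essential light chain of ventricular and slow muscle, read 45463, 48286 and 44903 in the knockouts and 43509, 43993 and 50079 in the wild types. Its differences were 0.063, 0.13 and -0.16. The knockout values of Myl3 lay inside the range of its wild types, and of the Myl2 values only the female knockout lay above it. The mean was 0.0092 ± 0.17 for Myl2 and 0.013 ± 0.15 for Myl3 (SD, n = 3 pairs; limma adjusted p = 0.9998 for both). Their ranks on the arrays ran from 15 to 43 for Myl2 and from 2 to 15 for Myl3.

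Ttn, the giant spring of the sarcomere, was measured by 12 probes, of which 10 were above background. The brightest read 18569, 22858 and 22087 in the general, female and male knockouts, against 17028, 22943 and 29088 in the wild types. Both general hearts lay below the other 4, and the male wild type was the highest. The differences were 0.13, -0.0053 and -0.397, with a mean of -0.093 ± 0.27 (SD, n = 3 pairs; limma adjusted p = 0.9998). The second-brightest Ttn probe read 4578, 5490 and 5602 in the knockouts and 4821, 5590 and 5874 in the wild types, and was lower in every pair by a small amount (-0.075, -0.026 and -0.068). It was the only Ttn probe of 10 with the same sign in all 3 pairs.

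The Ttn probes disagreed. In the general pair 7 of 10 were higher in the knockout and in the female pair 6 of 10, but in the male pair 2 of 10. A pair of mid-level probes, picked out after their values were seen, moved far more than the rest. One of them read 708, 565 and 542 in the knockouts and 421, 531 and 691 in the wild types (0.75, 0.09 and -0.35). The other read 282, 471 and 363 in the knockouts and 470, 433 and 184 in the wild types (-0.74, 0.12 and 0.98), which is the opposite order in the general and the male pair. The other 8 probes stayed between -0.397 and 0.21 in all pairs. With every kept probe tested on its own, none of the 19 probes of the members passed limma's test over 17799 probes (adjusted p at least 0.999 in the heart-specific comparison). For the difference between lines the adjusted p was 0.562 and 0.494 for the pair of mid-level Ttn probes and at least 0.948 for the other 8.

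Tcap, telethonin, which ties the ends of titin together at the Z-disc, had 2 probes. The brighter one read 23348, 22021 and 16519 in the general, female and male knockouts, against 24093, 21747 and 13878 in the wild types, and the other 14399, 14365 and 12345 against 15164, 11406 and 8967. By both probes the male wild type was the lowest of the 6 arrays and the male knockout lay above it. The brighter probe differed by -0.045, 0.018 and 0.25, and the other by -0.075, 0.33 and 0.46. Both were thus slightly lower in the general and higher in the female and the male knockout. The mean of the brighter probe was 0.075 ± 0.16 (SD, n = 3 pairs; limma adjusted p = 0.9998).

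**Figure D2:**
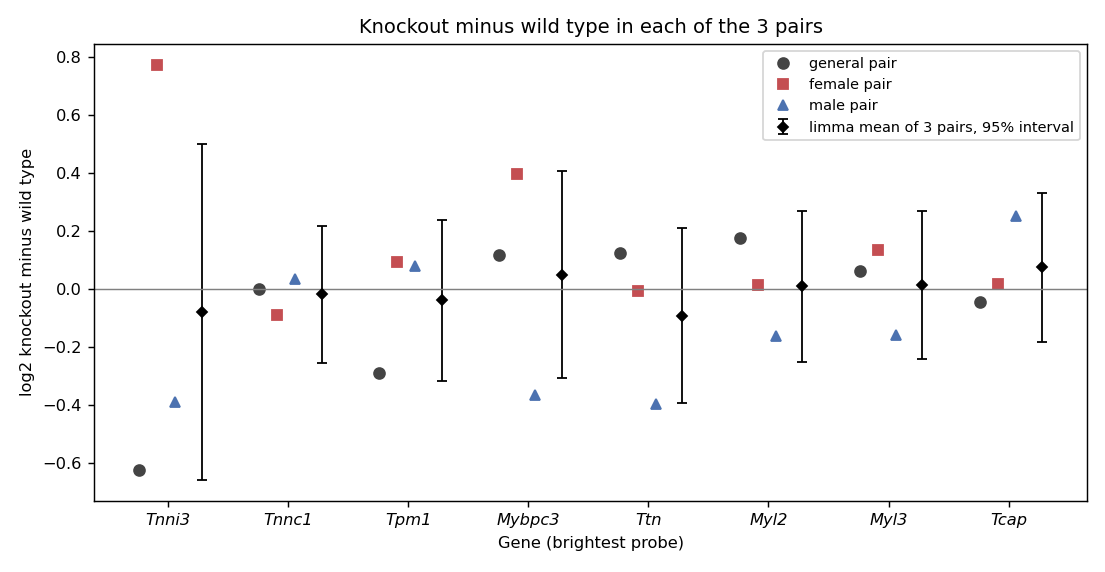
Difference of knockout minus wild type (log2) in the general, female and male pairs for the brightest probe of the 8 genes above background, with limma's mean over 3 pairs and its 95% interval in black. The points of Tnni3 and Mybpc3 lie on both sides of 0 in the female and the male pair, and every interval includes 0.

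**Figure D3:**
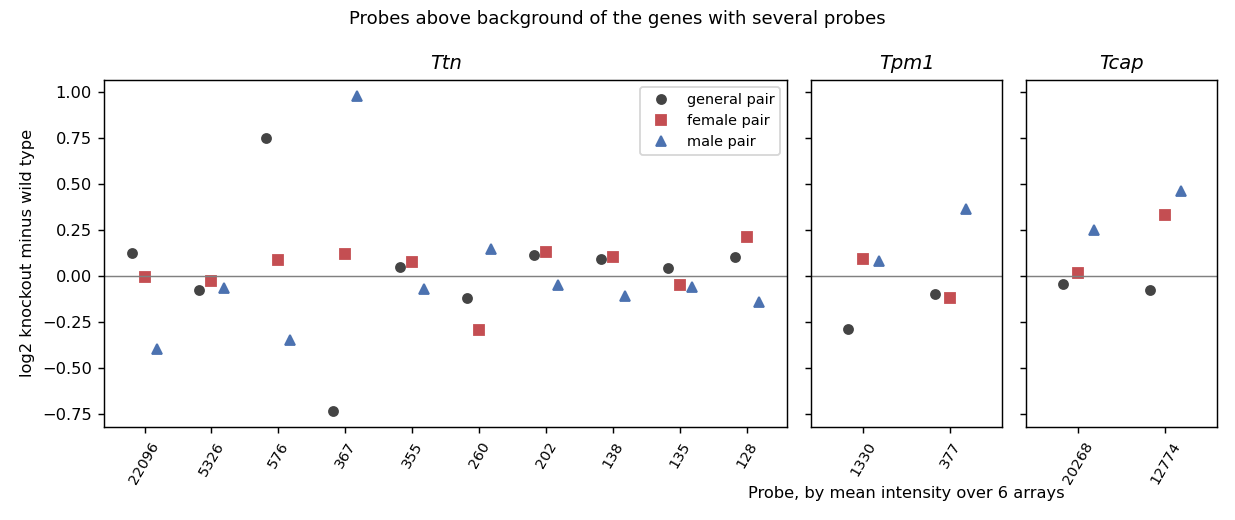
Difference of knockout minus wild type (log2) for each probe above background of Ttn, Tpm1 and Tcap, ordered by mean intensity over 6 arrays. A pair of Ttn probes reach 0.75 and 0.98 in opposite pairs while the other 8 stay between -0.397 and 0.21.

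In 5 of the 8 members most of the variation over the arrays lay between the pairs. Of the sum of squares of Tcap over the 6 arrays, 93.6% lay between pairs and 1.6% between genotypes. For Tnnc1 the pair took 76.8%, for Ttn 76.2%, for Tnni3 64.9% and for Myl2 64.7%, beside a median of 51.5% over all genes. Genotype took between 0.2% (Myl2) and 4.1% (Tpm1), beside a median of 7.8% over all genes. In Tpm1, Mybpc3 and Myl3 most of the sum (83.6%, 75.2% and 72.3%) was difference between knockout and wild type that changed from pair to pair. The SD of log2 signal over the arrays was 0.57 for Tnni3, which 1.23% of genes exceeded, 0.32 for Tcap (8.65%) and 0.27 for Ttn (14.1%). It was 0.062 for Tnnc1, 0.080 for Myl3 and 0.13 for Myl2, but these 3 lie at the top of the scale. Line, sex and single animals cannot be told apart in the differences between pairs.

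In the heart-specific pairs, Tpm1 and Tcap were higher in both knockouts (24.5% of all genes were) and Ttn was lower in both (25.8% were). The mean was 0.086 ± 0.0096 for Tpm1, 0.13 ± 0.16 for Tcap and -0.20 ± 0.28 for Ttn (SD, n = 2 pairs; limma adjusted p = 0.9755 for each). The small SD of Tpm1 belongs to its brightest probe, since the other gave -0.12 and 0.37, and the value of Ttn turned to 0.0117 with the mean of its kept probes. The other 5 members had opposite signs in the female and the male pair. None of the 8 passed limma's test, which called 0 of 11285 genes (0%) in this comparison. Here 505 genes had an unadjusted p under 0.05, where 564 are expected by chance. The 95% intervals ran from -0.42 to 0.81 for Tnni3 and from -0.34 to 0.28 for Tnnc1.

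In the general pair, with 1 array per genotype and no test, 4 of the 8 members were higher, 3 lower and Tnnc1 had equal values. The general pair had the opposite sign to both heart-specific pairs for Tpm1, Ttn and Tcap, as was so for 28.5% of genes. This rests on the brightest probes, since the mean of the kept probes gave -0.194, -0.0133 and 0.222 for Tpm1 and 0.0342, 0.0356 and -0.0122 for Ttn in the general, female and male pairs, and cyclic loess gave 0.0373, 0.0198 and -0.336 for Ttn. The difference between the general and the heart-specific effect was -0.82 ± 0.45 (SE) for Tnni3, -0.37 ± 0.22 for Tpm1 and 0.33 ± 0.26 for Ttn. None of the 8 passed limma's test of that difference (adjusted p from 0.8452 to 0.9919), which called 9 of 11285 genes (0.0798%).

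Isoforms that share a filament place with the members were measured too. Myl4, the atrial essential light chain, read 311, 1078 and 552 in the general, female and male knockouts and 2385, 295 and 309 in the wild types. Myl7, the atrial regulatory light chain, read 121, 149 and 107 in the knockouts and 623, 110 and 110 in the wild types, and was above background on 2 arrays. Myl4 passed the test of the difference between lines (-4.29 ± 0.41, SE, limma adjusted p = 0.0386), as did Myl7 (adjusted p = 0.0497), for which no size is given since its general knockout lay below background. In this test the general line is 1 pair and the spread comes from the other 2 pairs alone. Both calls were lost without the pair block, where the smallest adjusted p of any gene was 0.0924, and that of Myl4 with genes above background on all 6 arrays (0.101). Neither gene passed over 3 pairs. The ventricular counterparts Myl2 and Myl3 differed in the general pair by 0.18 and 0.063.

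Of the thin filament, Tnnt1, the slow skeletal troponin T, was higher in every pair by 0.035, 0.20 and 0.076, and the fast skeletal Tnni2 differed by 0.05, -0.225 and 0.67. Tpm2 (-0.175, 0.22 and 0.22) and Tpm3 (-0.475, 0.23 and 0.33) had the same pattern of signs as Tpm1. Probes of Tnnt3 and Tnnc2, which encode fast skeletal troponins, were above background on 1 array each.

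The major motor and actin genes are measured by a probe near the top of the scale and a dimmer one. The brightest Myh6 probe differed by 0.028, -0.017 and -0.25, and the dimmer Myh6 probe by -0.70, 0.77 and -1.06, reading 5989, 7272 and 6866 in the knockouts and 9737, 4259 and 14292 in the wild types. Likewise the brightest Actc1 probe differed by 0.16, 0.27 and -0.12 and the dimmer one by -0.56, 0.24 and -0.575. The dimmer probes of both genes and Acta1 (-1.90, 0.37 and -1.41) had the signs of Tnni3 in all 3 pairs. The share of all genes with these signs was not counted, and the likeness was not tested. Tnnc1, Myl2 and Myl3 have no second probe with which this could be compared. The fetal myosin Myh7 differed by -0.36, 0.16 and -0.38.

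The wider sarcomere was set beside these genes with 5 lists, of which 59 of 73 genes were above background. In these lists 2 of 59 were higher in all 3 pairs (11.3% of all genes were) and 6 of 59 lower (10.5% were). Of the 59, 0 passed limma's test over 3 pairs. Their medians in the general, female and male pairs were -0.14, 0.16 and -0.12, beside 0.017, -0.005 and -0.001 over all genes. In the general pair 16 of 59 genes were lower in the knockout by at least 0.5, beside 2.81% of all genes and 1 of the 8 members (Tnni3). The lists were drawn up with earlier results of these data known and hold genes already seen to differ, so this count is a description.

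Most of these lay at the Z-disc or in the thick filament. Of 19 genes of the Z-disc and of titin's partners, 14 were lower in the general knockout, 9 of them by at least 0.5, and the list median was -0.35. In the female and male pairs it was 0.19 and -0.17. Lower in every pair were Hspb7, a small heat shock protein of muscle (-0.83, -3.20 and -2.30), Fhl1, a LIM-domain protein that binds titin (-2.22, -0.15 and -0.40), and the intermediate filament gene Des (-0.24, -0.073 and -0.389). In the thick filament and M-band list 5 of 12 genes were lower by at least 0.5 in the general knockout. Among them were Myl4, Myl7 and Mybphl, which are also in the list of atrial markers. Mybphl, a relative of Mybpc3, was lower in every pair (-0.73, -0.39 and -0.13). It read 108 in the male knockout and 119 in the male wild type, both below background, so its direction in that pair could not be measured. In the thin filament list Tmod4, a tropomodulin that caps actin filaments, was lower in every pair (-0.049, -0.03 and -0.58) and Tnnt1 higher.

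Of 12 transcription factors of sarcomere genes above background, Tbx5 was higher in every pair (0.29, 0.21 and 0.078) and Hand2 lower (-0.33, -0.29 and -0.14), and none differed by 0.5 or more in any pair. Tbx5 read 119 in the male knockout and 113 in the male wild type, both below background, so its direction there could not be measured. Titin-associated kinases and ligases had medians of -0.19, 0.035 and -0.08 over 4 genes. None of these named genes passed limma's test over 3 pairs.

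**Figure D4:**
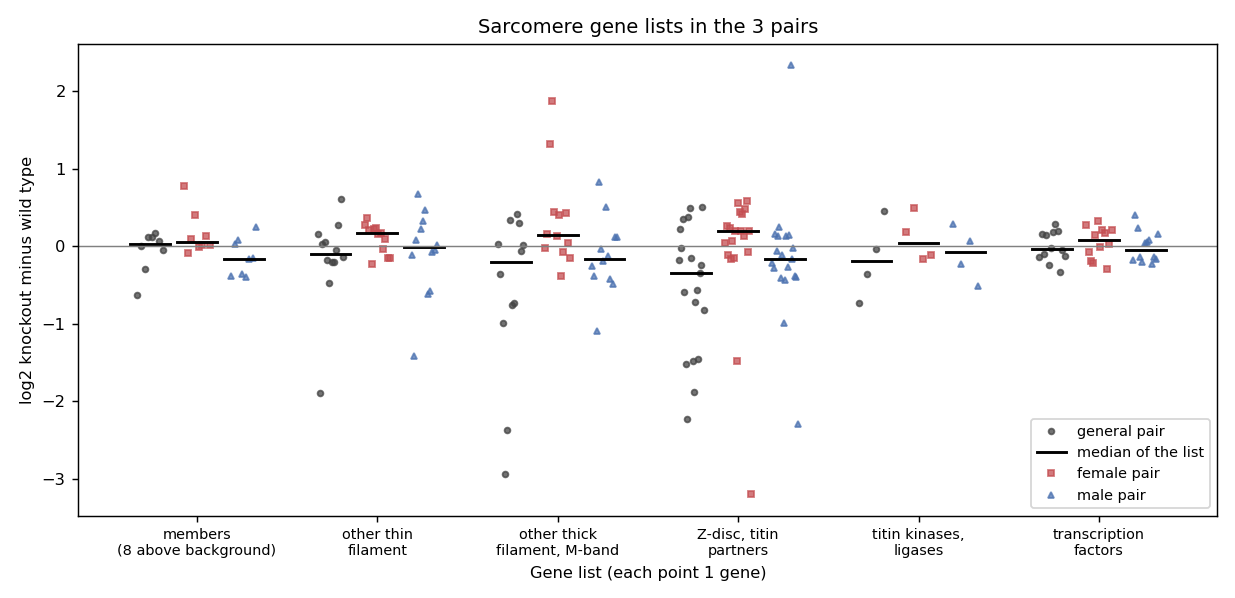
Difference of knockout minus wild type (log2) of each gene above background in the general, female and male pairs, for the 8 members and 5 further lists of sarcomere genes, with the median of each as a bar. The median of the Z-disc list is -0.35 in the general and 0.19 in the female pair, while those of the members lie between -0.16 and 0.055.

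Markers of other cells moved with the pairs as well. Of 9 atrial markers 8 were above background (not Bmp10), with a summed signal of 20129 to 26672 in knockout and 13466 to 43509 in wild-type hearts and medians of -0.98, 0.55 and 0.019 in the general, female and male pairs. The highest sum was in the general wild type and the lowest in the female wild type, the arrays with the highest and the lowest Tnni3. In the male pair the order was opposite. The atrial sum was 26672 in the knockout and 18817 in the wild type, while Tnni3 read 3415 and 4473. Of 11 skeletal muscle markers 4 were above background, and the sum was 585 to 775 in knockout and 587 to 736 in wild-type hearts. The fast myosin gene Myh4, Actn3 and Myod1 were among those without a probe above background, and 10 of the 11 had a probe at all. Of 7 red blood cell markers 4 were measured, all above background, with sums of 44186 to 48740 in knockout and 35503 to 42437 in wild-type hearts, which do not overlap, and medians of -1.09, 0.48 and 0.38 in the general, female and male pairs. In the general pair the sum and the median thus differ in sign. The 7 of 8 fibroblast markers above background had medians of -0.41, 0.074 and -0.23 and sums of 20927 to 21384 in knockout and 20247 to 26902 in wild-type hearts. The 4 of 5 smooth muscle markers above background summed to 15256 to 27714 in knockout and 14411 to 20663 in wild-type hearts, the highest being the male knockout. Their medians were -0.008, -0.075 and -0.126 in the general, female and male pairs, so sum and median differ in sign in the general and the male pair. The 6 of 7 endothelial markers above background summed to 2972 to 3813 in knockout and 2833 to 4358 in wild-type hearts. Of 8 macrophage markers 7 were measured, all above background, and summed to 4216 to 5285 in knockout and 4066 to 5984 in wild-type hearts. The part of any of these cells in the members' differences was not tested. In whole hearts fewer muscle cells and less RNA per cell cannot be told apart.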

How the data were processed

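Total heart RNA was turned into biotin-labelled cRNA and hybridised to single-colour Illumina arrays, per the labels' protocols. GenomeStudio gave the intensities that the authors deposited, per the submitters' processing notes, without its version or options being named there. The sorted columns differ by at most 2.32%, so the intensities were taken as quantile-normalized, with no sign of background subtraction, which compresses folds of dim genes. A second deposited table has 12 columns whose headings match no label, and it was not used here.

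Probes were named from the platform annotation (34885 with 1 gene, 18 with several, 10378 with none), with symbols updated through gene IDs of GRCm38.p6 (34807 matched), as no build is named. Probes above background on at least 2 of 6 arrays were kept, and a gene is its probe with the highest mean log2. Promoter windows are RefSeq's, GRCm38.p6.

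Log2 intensities were fitted with limma 3.58.1 in R 4.3.3 (lmFit, eBayes, Benjamini-Hochberg over all genes), with the pair as a block (2 residual degrees of freedom, prior 5.3) or with separate terms for the lines (1 and 5.74). Pairs come from the titles. Deviations from genotype means correlated within pairs across genes (r = 0.341 general, 0.327 female, 0.345 male). The smallest two-sided p of an exact sign-flip test is 0.25, so p-values rest on the model. The fits were tested on simulated data. Members and lists were chosen with earlier results of these data known. Named are all members, isoform counterparts, up to 3 genes per list and direction with the same sign in all pairs, and the nearest profiles. The pair of mid-level Ttn probes, the dimmer probes of Myh6 and Actc1, and genes resembling Tnni3, were singled out after their values were seen. Alternatives changed the probe choice, filter, background, normalization, prior, block and pairs.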

Additional observations from a re-analysis of the deposited data

Results flagged for a closer look

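The general pair moved against both heart-specific pairs in 3 members, by a difference between the lines of -0.375 for Tpm1 (limma adjusted p = 0.853), 0.326 for Ttn (adjusted p = 0.906) and -0.18 for Tcap (adjusted p = 0.944), none of which passed. These are values of the brightest probes. Of all genes 28.5% had such opposite signs. For 2 of the 3 members the signs rest on values near 0, namely -0.0053 for Ttn in the female pair, and -0.045 and 0.018 for Tcap in the general and female pairs. With the mean of the kept probes the difference between the lines was 0.0225 for Ttn, and neither Ttn nor Tpm1 then moved against both heart-specific pairs.

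The female and the male pair moved in opposite directions in 5 of the 8 members. Of all genes only 24.5% were higher and 25.8% lower in both of these pairs, so opposite directions were common over all genes too. The female minus the male difference was 1.16 for Tnni3, 0.761 for Mybpc3, 0.292 for Myl3, 0.174 for Myl2 and -0.122 for Tnnc1. With 1 pair of each sex these differences were not tested, and sex cannot be told apart from the single hearts.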

How the results depend on the processing

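No member passed limma's test under any setting. The smallest adjusted p was 0.734 for a member's value and 0.494 for any single probe of a member. In the 4 settings that can change a member's value without leaving out a pair (averaged probes, background offsets 16 and 50, cyclic loess), 88 of 96 values kept their direction. Averaging cannot change Tnni3, Tnnc1, Mybpc3, Myl2 and Myl3, which have 1 kept probe each. The offsets hardly move signals this far above background. With offset 16 Mybpc3 in the general pair went from 0.117 to 0.118 and Tnni3 in the female pair from 0.774 to 0.805. Much of this count was therefore fixed in advance or nearly so. All 8 reversals came with averaged probes or cyclic loess, and none with the offsets. With the mean of a gene's kept probes, Tpm1 became 0.00487 and Ttn 0.0192 over 3 pairs, and Ttn 0.0117 in the heart-specific pairs. With cyclic loess, Tnnc1 became 0.0118 and Myl3 0.0287 in the heart-specific pairs, and the difference between lines became -0.115 for Tnnc1, -0.0174 for Mybpc3 and -0.0671 for Myl3. The cause was not tested.

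Over all genes, 0 were called over 3 pairs under every setting. In the heart-specific pairs 2 were called with averaged probes and 1 each with every probe, no filter, offset 50, cyclic loess and an intensity trend. Between lines the count was 26 with averaged probes, 30 with every probe, 21 without a filter, 0 with genes above background on all 6 arrays, 18 at offset 50, 24 with cyclic loess, 28 with a trend and 0 without the pair block (replicate block), where main values called 9. The pair block changed no call of a member.

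Leaving out each pair in turn called 0 genes over 3 pairs. Of the 64 member values obtained in this way 18 changed direction. The heart-specific values without the general pair equal the main ones and could not change. The members' values over 3 pairs ranged from -0.507 to 0.192 for Tnni3, -0.0445 to 0.0165 for Tnnc1, -0.105 to 0.0857 for Tpm1, -0.124 to 0.257 for Mybpc3, -0.201 to 0.0598 for Ttn, -0.0745 to 0.0945 for Myl2, -0.047 to 0.0988 for Myl3 and -0.0136 to 0.135 for Tcap. In the heart-specific pairs they ranged from -0.389 to 0.774 for Tnni3, -0.089 to 0.033 for Tnnc1, -0.364 to 0.397 for Mybpc3, -0.397 to -0.00531 for Ttn, 0.0181 to 0.251 for Tcap, -0.161 to 0.0124 for Myl2 and -0.157 to 0.134 for Myl3. Between lines they ranged from -1.4 to -0.236 for Tnni3, 0.13 to 0.522 for Ttn, -0.297 to -0.0634 for Tcap, 0.164 to 0.338 for Myl2, -0.033 to 0.089 for Tnnc1, -0.28 to 0.481 for Mybpc3 and -0.071 to 0.221 for Myl3. The brightest Tpm1 probe ranged from 0.0789 to 0.0925 in the heart-specific pairs and from -0.382 to -0.368 between lines. For the heart-specific and line values 1 heart-specific pair is then left, with no test.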

Other observations

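The genes with the profile nearest to Tnni3 over the 6 arrays, by root mean square distance of centred log2 values among 1369 genes, were Mettl9 (0.184), Psmd11 (0.189), Marchf5 (0.195), Hsp90aa1 (0.196) and Arpc2 (0.20). Mettl9 differed by -0.68, 0.48 and 0.145 in the general, female and male pairs, so it was opposite to Tnni3 in the male pair. Psmd11, a subunit of the proteasome lid, differed by -0.59, 0.32 and -0.27 in the general, female and male pairs, and Hsp90aa1, the stress-inducible chaperone, by -0.65, 0.36 and -0.21. Each of the 5 read highest in the general wild type and lowest in the female wild type, as Tnni3 did. The profile of Tnni3 was looked at after its values were seen.

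The mean profile of the 8 members above background was nearly flat (SD 0.075), and the genes nearest to it were Cnr2, Gm1976, Rexo5, Tnrc6c and Atg4b (0.019 to 0.023), of which 4 read near the background level. No profile was compared with Tnni1, which was below background.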
